A study of Mus musculus with 16 samples.

Results

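Oct4 binding was compared between day 5 and day 7 of reprogramming, the late steps of the series, in Oct4-SK cells. These are OG2 MEFs, fibroblasts of mouse embryos that carry a GFP reporter driven by the Oct4 promoter, after infection with pMX retroviruses for Oct4, Sox2 and Klf4 and culture in iCD1, a chemically defined medium. Day 0 was the change into iCD1. Each day was sampled by 1 ChIP-seq library with the Oct4 antibody, so no replicates exist and no p-value was computed. A site is a peak summit on chromosomes 1 to 19, X or Y. The day 5 list held 4846 sites and the day 7 list 3614, together 8460 of the 226962 summits in the 13 ChIP libraries of the series. A day 5 site was called kept when a day 7 summit lay within 100 bp and lost when none did. A day 7 site with no day 5 summit within 100 bp was called gained. Other libraries were used only to ask what else occupied these sites: the Oct4 library of day 1, Oct4defSox2 at days 1 and 5, Sox2 at days 1 and 5 in each of 3 cultures, and the swap mutants Oct4 S151M and Oct6 M151S at day 1 by their titles (a further label of Oct6 M151S gives day 2). Oct4defSox2 is Oct4 mutated at its interface with Sox2, and the swap mutants exchange the Oct4 and Oct6 residue at a site of the POU domain that bears on homodimers. In Oct4defSox2-SK, Oct6-SK, Oct4 S151M-SK and Oct6 M151S-SK cells the named factor took the place of Oct4, and all cultures received retroviral Sox2 and Klf4. Read depth was not known here, and a retroviral culture is a mixture, so a change in the share of cells that bind a site and a change in binding per cell cannot be told apart. The summit lists hold no expression values, and the labelled cell type could not be checked against its markers. The day 7 library had shorter reads than the others, and day and read length cannot be told apart.

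Oct4 is a POU factor that reads DNA with 2 tethered domains, the POU-specific domain and the POU homeodomain. With Sox2 it forms a heterodimer on SoxOct elements, in which a Sox site lies beside an octamer, and these elements mark many enhancers of pluripotent cells. Oct4 can also form homodimers on the palindromic MORE element, a configuration that Oct6 favours. Fibroblast enhancers are typically rich in AP-1 sites, the targets of Fos and Jun dimers. Retroviral Oct4 is present from the start, whereas the endogenous gene, Pou5f1, is switched on only in cells that approach pluripotency.

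Motifs were searched as plain letters, on either strand, up to 100 bp from a summit. SoxOct was CATTGT, any base, then ATGCAAAT, with up to 2 mismatches among the 14 fixed letters. MORE was ATGCAT followed directly by a second ATGCAT, and MORE+1 the same pair with 1 base between them, each with up to 1 mismatch. The octamer was ATGCAAAT with 0 mismatches, so that a SoxOct match can hold an octamer as well. The best-ranked SoxOct matches of each class are given as examples of this element, not of the strongest sites as a whole. They are printed from the reference (GRCm38, mm10), on the strand of the motif, with the match in capitals and 20 bases to each side.
Kept, intron of Galnt17, chr5:131177341-131177395, plus strand, 0 mismatches: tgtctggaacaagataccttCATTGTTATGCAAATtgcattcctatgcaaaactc
Kept, near Klf13, chr7:63957227-63957281, plus strand, 2 mismatches: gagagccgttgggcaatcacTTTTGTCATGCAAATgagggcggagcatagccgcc
Kept, intron of Abca4, chr3:122145501-122145555, minus strand, 2 mismatches: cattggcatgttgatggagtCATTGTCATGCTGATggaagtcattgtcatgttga
Lost, intron of Tenm1, chrX:42941113-42941167, plus strand, 2 mismatches: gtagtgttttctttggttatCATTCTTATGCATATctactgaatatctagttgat
Lost, intergenic, Frk the nearest coding gene, chr10:35091053-35091107, minus strand, 2 mismatches: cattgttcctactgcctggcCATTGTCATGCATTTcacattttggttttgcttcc
Gained, intron of Ago1, chr4:126465955-126466009, plus strand, 2 mismatches: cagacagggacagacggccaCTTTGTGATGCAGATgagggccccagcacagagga
Gained, intron of Cntln, chr4:85048685-85048739, minus strand, 2 mismatches: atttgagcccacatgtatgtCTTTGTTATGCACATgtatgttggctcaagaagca
The palindrome of the MORE sites is shown in the same way, from among the strongest matches of each class. The best-ranked lost match, in Sort1, is not printed, as its window is 92.0% repeat, and the window of the Gm10306 match is 64.2% repeat.
Kept, intron of Lemd1, chr1:132222355-132222406, 0 mismatches: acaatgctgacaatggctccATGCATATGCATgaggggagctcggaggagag
Kept, intron of Col15a1, chr4:47226085-47226136, 1 mismatch: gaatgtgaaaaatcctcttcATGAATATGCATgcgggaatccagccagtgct
Lost, intergenic, Gm10306 the nearest coding gene, chr4:94482890-94482941, 1 mismatch: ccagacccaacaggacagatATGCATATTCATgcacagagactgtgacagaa
Lost, close to Ecpas, chr4:58917390-58917441, 1 mismatch: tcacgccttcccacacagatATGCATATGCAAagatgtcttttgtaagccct
Gained, Hhex the nearest coding gene, chr19:37469373-37469424, 1 mismatch: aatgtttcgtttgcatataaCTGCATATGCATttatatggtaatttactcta
In all 12 sequences the match lay within 31 bp of the summit, counted from the centre of the match.

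Most Oct4 sites were not shared by the 2 days. Of the 4846 day 5 sites, 1221 were kept, a share of 25.2% (95% Wilson interval 24.0 to 26.4), and 3625 were lost. Of the 3614 day 7 sites, 1223 were shared with day 5 and 2391 were gained, a share of 66.2% (64.6 to 67.7). These intervals, like all those below, cover counting error among sites only and compare 2 libraries. The kept pairs lay close together, with a median distance of 24 bp between their summits, and 983 of the 1221 were within 50 bp. Just inside the limit, 238 day 5 sites had their nearest day 7 summit at 51 to 100 bp, and just outside it 76 had theirs at 101 to 250 bp. Lost sites were mostly far from any day 7 summit: 3321 of them (91.6%) had none within 10 kb. The same held for 2116 gained sites (88.5%) with respect to day 5. By chromosome the kept share reached 29.6% on chromosome 10. On chromosome 8 it was 20.4% (48 of 235). On the X chromosome 12 of 60 day 5 sites were kept and 54 of 66 day 7 sites (81.8%) were gained, against 59.5% to 69.2% gained on chromosomes 1 to 19. The 1 day 5 site on the Y chromosome was lost.

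The lists were also compared at equal numbers of top-ranked summits. Scores are the −log10 p-value of the peak caller at the summit, which orders summits within a library but is not scaled between libraries. With the strongest 3614 summits of each day, 1145 day 5 sites (31.7%, 30.2 to 33.2) were shared. With the strongest 1000 the share was 35.7% (32.8 to 38.7), and with the strongest 100 it was 27.0% (19.3 to 36.4). Of the 100 strongest day 5 sites, 81 were somewhere in the day 7 list, and of the 100 strongest day 7 sites, 98 were somewhere in the day 5 list. The strongest gained site ranked 72 at day 7 and the strongest lost site ranked 9 at day 5.

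**Figure D1:**
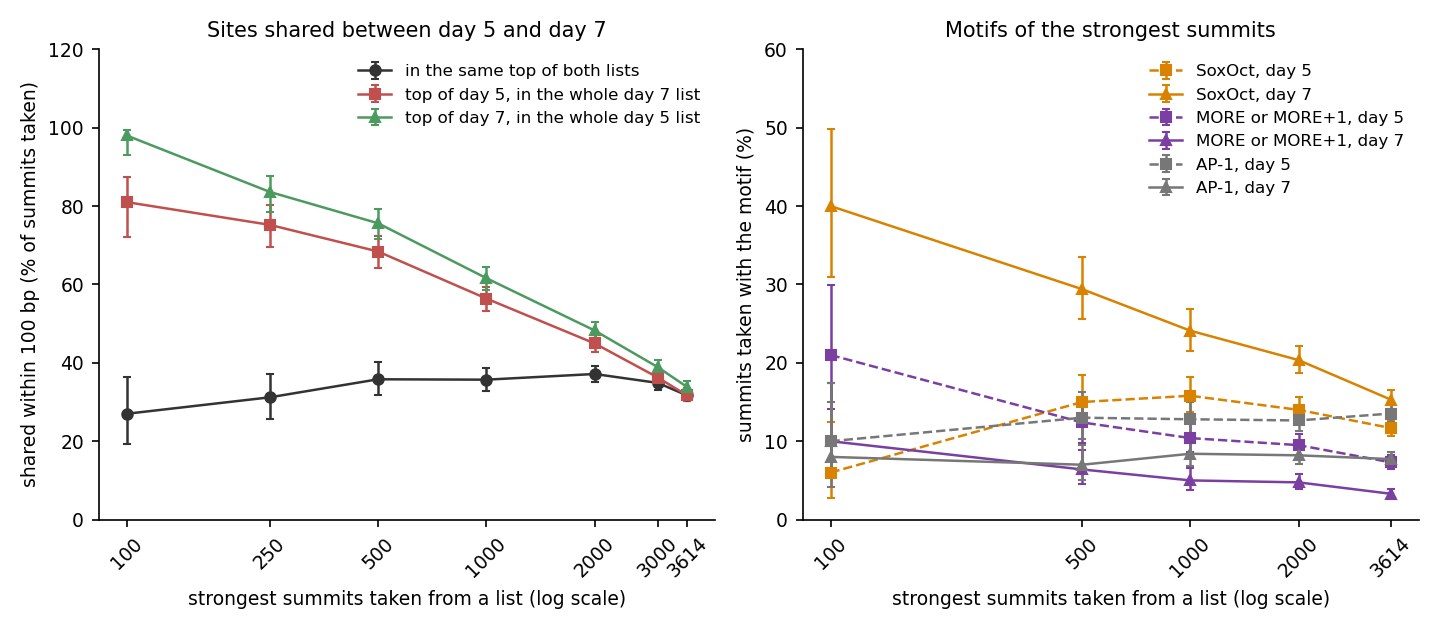
Left, the percentage of the strongest summits (x axis, number taken from a list, log scale) that were shared within 100 bp between day 5 and day 7, either within the same number of strongest summits of both lists or with the whole other list. Right, the percentage of those summits that held SoxOct, MORE or MORE+1, or AP-1 at day 5 (dashed) and day 7 (solid). Bars are 95% Wilson intervals, and SoxOct in the 100 strongest summits stood at 6% on day 5 and 40% on day 7.

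The strongest sites of both days differed in their motifs. SoxOct was found at 6 of the 100 strongest day 5 summits and at 40 of the 100 strongest day 7 summits, a difference of 34.0 percentage points (95% Newcombe interval 22.9 to 44.3). MORE or MORE+1 went the other way, with 21 of the 100 strongest at day 5 and 10 at day 7, a difference of -11.0 points (-21.0 to -0.90). A difference is called past counting error below when its interval excludes 0. Among the strongest 1000 summits the SoxOct share was 15.8% at day 5 and 24.1% at day 7 (difference 8.30 points, 4.81 to 11.8). The MORE share there was 10.4% and 5.00% (-5.40 points, -7.77 to -3.08). AP-1 followed MORE at this depth, with 12.8% and 8.40% (-4.40 points, -7.11 to -1.70). Windows that the reference marks as repeats over at least 50% of their length moved with the day, being 20 of the 100 strongest at day 5 and 5 at day 7. Without such windows SoxOct stood at 12 of the 100 strongest day 5 summits and 42 at day 7, and MORE at 22 and 10. The lists share sites, so the 2 days are not independent counts.

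By class, SoxOct was most frequent at kept sites. It was found at 247 of 1221 kept sites (20.2%), at 304 of 2391 gained sites (12.7%) and at 224 of 3625 lost sites (6.18%), against 0.205% to 0.414% of windows of the same length lying 2 kb to either side. Kept exceeded lost by 14.1 points (11.7 to 16.5), and gained exceeded lost by 6.54 points (5.01 to 8.11). The latter was 12.9 points (8.81 to 17.0) among the strongest 1000, and with 1 mismatch fewer or more it was 1.34 or 16.9 points, where kept exceeded lost by 3.86 or 27.8 points. The difference between gained and kept sites was -7.51 points (-10.2 to -4.94), but it was -0.86 points (-6.52 to 4.56) among the strongest 1000 of each list. Matches without any mismatch were few, at 6 kept, 7 gained and 3 lost sites. The match centre lay within 25 bp of the summit at 62.8% of kept sites with SoxOct (56.6 to 68.5), at 53.0% of gained sites (47.3 to 58.5) and at 51.8% of lost sites (45.3 to 58.2).

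The homodimer elements had another distribution. MORE or MORE+1 was present at 80 kept sites (6.55%), 205 lost sites (5.66%) and 39 gained sites (1.63%), with 0.246% to 0.290% in the neighbouring windows. Gained sites fell below lost sites by 4.02 points (interval of the difference -4.93 to -3.10) and below kept sites by 4.92 points (-6.51 to -3.53). Among the strongest 1000 these differences were -8.40 points (-11.1 to -5.84) and -8.34 points (-12.0 to -5.25), and with 1 mismatch fewer or more the first was -0.69 or -10.0 points. Kept and lost sites differed by 0.90 points (-0.59 to 2.58), and the sign turned to -0.056 among the strongest 1000 and to -2.11 (-4.48 to 0.48) with a score of at least 10. With 1 more mismatch this difference was 2.72 points (0.14 to 5.43), past counting error. The octamer without SoxOct or MORE was found at 6.96% of kept, 7.90% of gained and 5.46% of lost sites. None of these POU motifs was found at 66.7% of kept sites (64.0 to 69.3), 77.9% of gained sites (76.2 to 79.5) and 82.9% of lost sites (81.6 to 84.1), which says only that these letters were not in the window. With 1 more mismatch allowed the motifs were missing from 412 of 1221 kept and 2206 of 3625 lost sites, and kept minus lost was -27.1 points, against -8.45 points with 1 fewer.

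**Figure D2:**
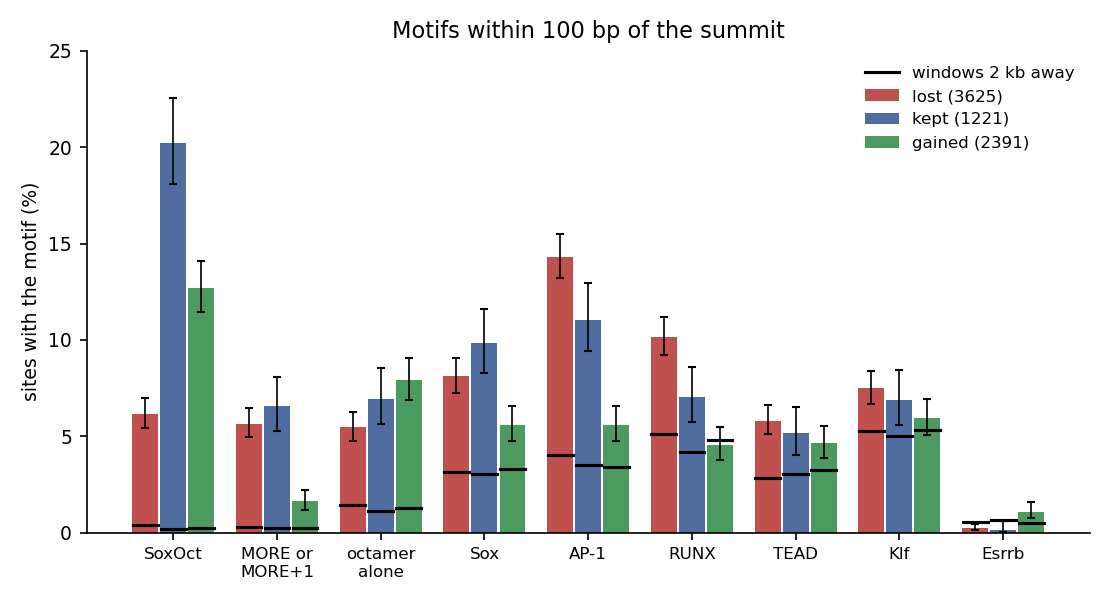
Percentage of lost, kept and gained Oct4 sites (y axis) with each motif (x axis) within 100 bp of the summit, with 95% Wilson intervals and, as black lines, the percentage of windows 2 kb away with the same motif. SoxOct is highest at kept sites (20.2%), MORE is lowest at gained sites (1.63%) and AP-1 is highest at lost sites (14.3%).

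Strong day 5 sites were kept more often than weak ones, so motifs were also compared at like scores. The kept share was 6.02% in the lowest quartile of the day 5 score, then 13.8% and 25.9%, and 53.8% (51.0 to 56.5) in the highest, which began at a score of 14.5. These scores are not independent of the classes, since a weak site is near the calling threshold, and they are given as a description. SoxOct was more frequent at kept than at lost sites in each quartile. In the lowest the shares were 13.9% and 3.38% (difference 10.5 points, 4.22 to 20.4), and in the highest 20.5% and 8.92% (11.5 points, 7.63 to 15.4). MORE was at no quartile more frequent at kept sites. In the third quartile the shares were 4.63% at kept and 8.31% at lost sites (-3.68 points, -6.34 to -0.39), and in the highest 9.02% and 12.1% (-3.04 points, -6.56 to 0.38).

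**Figure D3:**
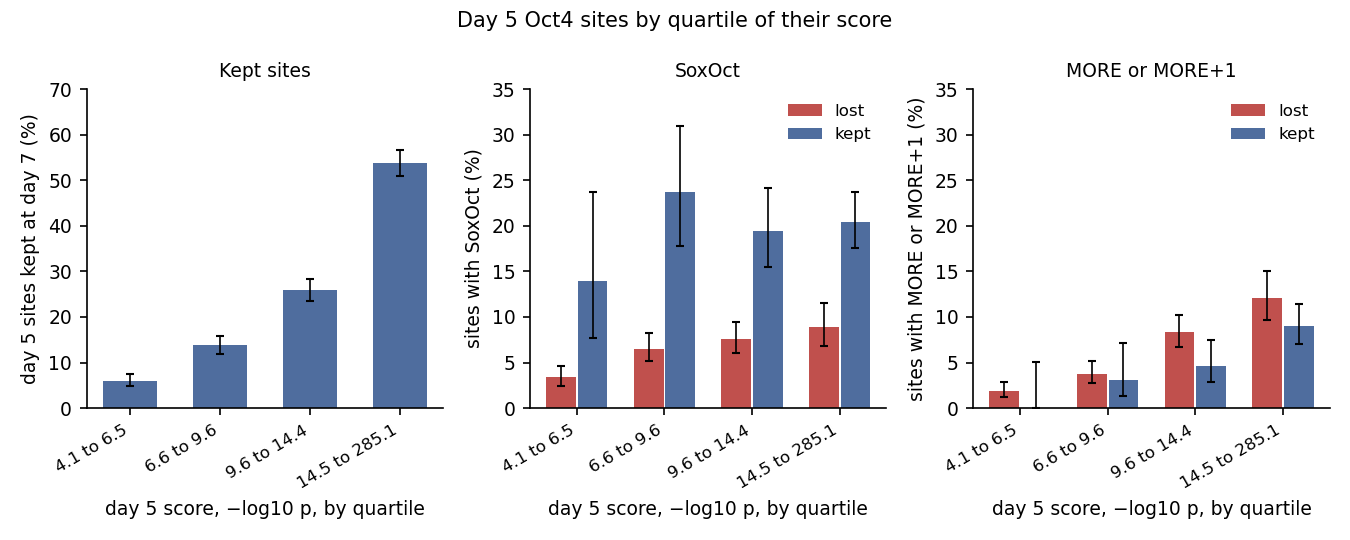
Day 5 Oct4 sites by quartile of their score (x axis, −log10 p), with the percentage kept at day 7 (left), and the percentage of lost and kept sites with SoxOct (middle) and with MORE or MORE+1 (right), each with its 95% Wilson interval. The kept share climbs from 6.02% to 53.8%, and within each quartile SoxOct is more frequent at kept sites whereas MORE is not.

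Seen from the motif, 242 of 459 day 5 sites with SoxOct and no MORE were kept (52.7%, 48.2 to 57.2). Of the 273 sites with MORE and no SoxOct, 75 were kept (27.5%, 22.5 to 33.1), and of the 3819 sites without a POU motif 814 were kept (21.3%). In the highest quartile of the day 5 score these shares were 73.1%, 46.0% and 50.5%. There SoxOct sites exceeded MORE sites by 27.1 points (16.0 to 37.5), and MORE sites differed from sites without a POU motif by -4.51 points (-13.7 to 4.88). From the side of day 7, 301 of 545 SoxOct sites were gained (55.2%, 51.0 to 59.4), 36 of 111 MORE sites (32.4%, 24.4 to 41.6) and 1862 of 2673 sites without a POU motif (69.7%, 67.9 to 71.4). In the highest quartile of the day 7 score 6 of 43 MORE sites were gained (14%), against 82 of 227 SoxOct sites (36.1%), a difference of -22.2 points (-32.0 to -7.58). Of the sites without a POU motif in that quartile, 209 of 565 were gained (37.0%), and SoxOct sites differed from these by -0.87 points (-8.09 to 6.64), against -14.4 points over all scores.

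Kept sites also changed their order. The 1221 kept pairs were ranked by score on each day. Sites with SoxOct and no MORE had a median rank of 597.5 at day 5 and 479.5 at day 7, where a low number is a strong site. Sites with MORE and no SoxOct went from a median rank of 332 to 591. The better rank was at day 7 for 143 of 242 SoxOct sites (59.1%, 52.8 to 65.1), 19 of 75 MORE sites (25.3%, 16.9 to 36.2) and 388 of 814 sites without a POU motif (47.7%, 44.3 to 51.1). SoxOct exceeded MORE by 33.8 points (21.2 to 44.1). The same measure was 60.4% for the 235 kept sites that Sox2 occupied at day 5 and 45.6% for the 986 that it did not (difference 14.8 points, 7.69 to 21.6). These groups did not start level: the median day 5 rank was 547 with Sox2 and 628 without it, and 632.5 for sites without a POU motif, from which SoxOct sites differed by 11.4 points (4.26 to 18.3). The measure was 41.3% for kept sites occupied by Oct4 at day 1 and 62.0% for those that were not (-20.7 points, -26.3 to -14.9), with median day 5 ranks of 469 and 863.5. A group that ranks high at day 5 has more room to fall, and the part of the starting rank in these differences, including that of MORE, was not tested. Over all kept pairs Spearman's rho between the scores of both days was 0.33, across sites that share the 2 libraries.

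**Figure D4:**
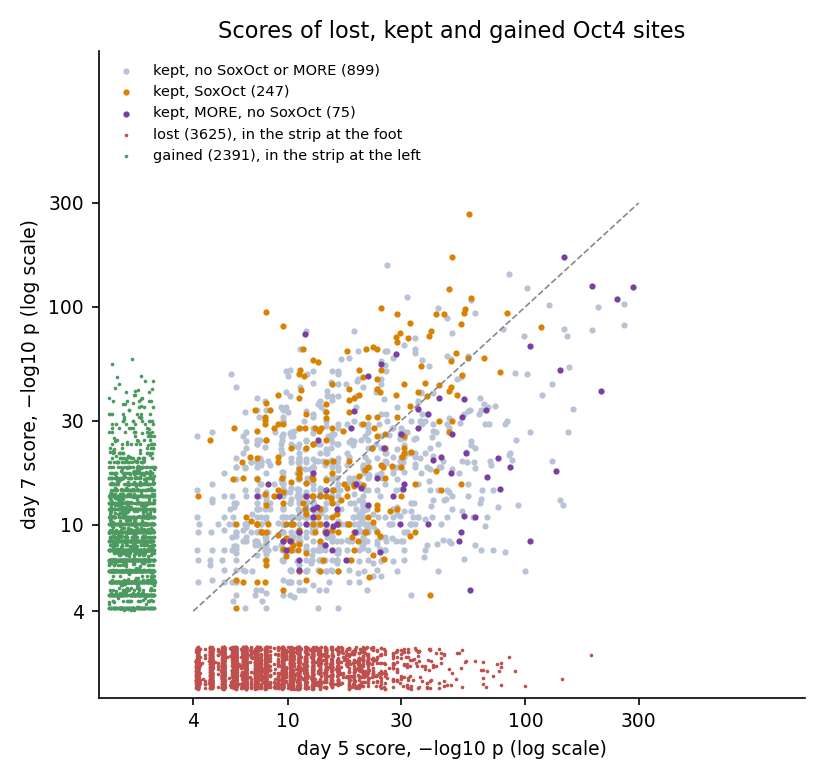
Scores of kept Oct4 sites at day 5 (x axis) and day 7 (y axis), both −log10 p on a log scale, coloured by motif, with lost sites in the strip at the foot and gained sites in the strip at the left (the spread across a strip has no meaning). The dashed line marks equal scores, and the median score was 25.5 at day 5 and 14.7 at day 7 for kept sites with MORE and no SoxOct, against 15.3 and 18.3 for those with SoxOct and no MORE.

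Other motifs were also compared between the classes. AP-1 (TGAGTCA) was found at 519 lost sites (14.3%), 135 kept sites (11.1%) and 134 gained sites (5.60%), with 3.41% to 4.01% in the neighbouring windows. Gained sites fell below lost sites by 8.71 points (interval of the difference -10.2 to -7.23), and by 5.43 points in windows of 50 bp to each side. RUNX (TGTGGTT), read by Runx factors, was found at 10.2% of lost, 7.04% of kept and 4.56% of gained sites, the last against 4.79% of its neighbouring windows. Gained and lost sites differed by -5.59 points (-6.87 to -4.28). The TEAD motif (ACATTCC) differed less, with 5.82% at lost and 4.64% at gained sites (-1.18 points, -2.30 to -0.01). A Sox motif (CCATTGT), counted whether or not it was part of a SoxOct match, was found at 9.83% of kept, 8.11% of lost and 5.60% of gained sites. Klf factors share the motif searched as GGGNGTGG, which was present at 6.88% of kept, 7.50% of lost and 5.94% of gained sites. The intervals were 5.59 to 8.44, 6.69 to 8.41 and 5.06 to 6.96, against 5.00% to 5.31% of neighbouring windows. The Klf difference of gained from lost sites, -1.56 points (-2.82 to -0.26), turned to 0.62 (-2.28 to 3.53) among the strongest 1000. The motif of Esrrb (TCAAGGTCA), an orphan receptor of naive pluripotent cells, was rare, at 26 gained sites (1.09%), 9 lost sites (0.25%) and 2 kept sites (0.16%). Gained exceeded lost by 0.84 points (0.43 to 1.35), and the neighbouring windows stood at 0.52% for gained and 0.55% for lost sites.

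Kept sites had mostly been occupied from the start. Oct4 summits of day 1 lay at 795 kept sites (65.1%, 62.4 to 67.7), at 1215 lost sites (33.5%, 32.0 to 35.1) and at 278 gained sites (11.6%, 10.4 to 13.0). The 278 sites were thus bound at day 1, missing from the day 5 list and back at day 7. Kept exceeded lost by 31.6 points (28.5 to 34.6), and gained differed from lost by -21.9 points (-23.9 to -19.9). Among the strongest 1000 these differences were 8.64 points (3.38 to 13.5) and -42.3 points (-47.0 to -37.2). Among kept sites that Oct4 had not occupied at day 1, 101 of 426 held SoxOct (23.7%), and among those that it had, 146 of 795 (18.4%), a difference of -5.34 points (-10.3 to -0.61) for the latter. Lost sites went the other way, with SoxOct 1.85 points (0.18 to 3.67) more frequent where day 1 binding was present, and gained sites differed by -0.95 points (-4.57 to 3.58). MORE leaned to the early sites in the lost class, with 9.55% of those bound at day 1 and 3.69% of those that were not (5.85 points, 4.12 to 7.76). AP-1 at lost sites differed by 0.13 points (-2.23 to 2.61) between them. The lost sites bound at day 1 had a median day 5 score of 11.1, against 7.29 for the other lost sites. The part of the score in the MORE difference was not tested. Gained sites without day 1 binding held AP-1 at 5.11% and gained sites with it at 9.35% (4.24 points, 1.18 to 8.33). For sites not bound at day 1, the kept share was 43.0% with SoxOct (101 of 235), 19.1% with MORE (21 of 110) and 12% without a POU motif (281 of 2337). For sites bound at day 1 it was 61.9% with SoxOct, 33.7% with MORE and 36.0% without a POU motif. In the highest score quartile of sites not bound at day 1, MORE sites differed from those without a POU motif by 0.43 points (-15.8 to 19.3).

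Sox2 co-bound kept sites more often than the others. Sox2 summits of day 5 in the same Oct4-SK cells lay at 235 kept sites (19.2%, 17.1 to 21.6), 237 lost sites (6.54%) and 147 gained sites (6.15%). Kept exceeded lost by 12.7 points (10.4 to 15.1), and by 20.7 points (15.8 to 25.9) among the strongest 1000. Gained and lost sites differed by -0.39 points (-1.62 to 0.89), a difference that became 7.00 points (3.67 to 10.4) among the strongest 1000. At SoxOct sites the day 5 Sox2 share was 23.1% where Oct4 was kept (57 of 247), 4.91% where it was lost (11 of 224) and 4.61% where it was gained (14 of 304), and kept exceeded lost there by 18.2 points (12.1 to 24.2). Of the 68 day 5 sites with both SoxOct and Sox2, 57 were kept (83.8%, 73.3 to 90.7), and in the highest score quartile 44 of 47 were (93.6%, 82.8 to 97.8). SoxOct sites without a Sox2 summit were kept at 47.1% (42.3 to 52.0). A Sox2 library of day 7 was not analysed here. In Oct6-SK cells Sox2 at day 5 was found at 9.25% of kept, 3.31% of lost and 2.59% of gained sites, and in Oct4defSox2-SK cells at 10.8%, 8.03% and 3.76%. MORE sites had few Sox2 summits, 4 of 80 where kept and 3 of 205 where lost.

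Over all scores, Oct4defSox2 at day 5 was found more often at kept than at lost sites, at MORE sites among others. Day 5 summits of Oct4defSox2, from Oct4defSox2-SK cells, lay at 214 kept sites (17.5%), 300 lost sites (8.28%) and 20 gained sites (0.84%), out of a list of 1034. Kept exceeded lost by 9.25 points (7.01 to 11.6), but among the strongest 1000 Oct4 sites the difference was -0.013 points (-5.81 to 5.98). At MORE sites it was present at 40 of 80 kept sites (50.0%) and 52 of 205 lost sites (25.4%), a difference of 24.6 points (12.2 to 36.7). The share at SoxOct sites was 9.72% where kept and 2.68% where lost. Neither motif group was compared at like scores here. MORE sites without SoxOct were kept at 46.0% in the highest quartile of the day 5 score, against 27.5% over all scores. The larger day 1 lists gave the same order of the classes, with Oct4defSox2 (31060 summits) at 75.6% of kept, 47.8% of lost and 24.6% of gained sites, and Oct4 S151M (101151 summits) at 87.3%, 56.1% and 34.7%. A share rises with the length of the other list, so these shares compare the classes within a library and not the libraries. No summit of the other 11 libraries lay at 1296 gained sites (54.2%, 52.2 to 56.2), and SoxOct was present at 140 of them (10.8%, 9.23 to 12.6), against 164 of the 1095 gained sites with such a summit (15.0%, 13.0 to 17.2).

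**Figure D5:**
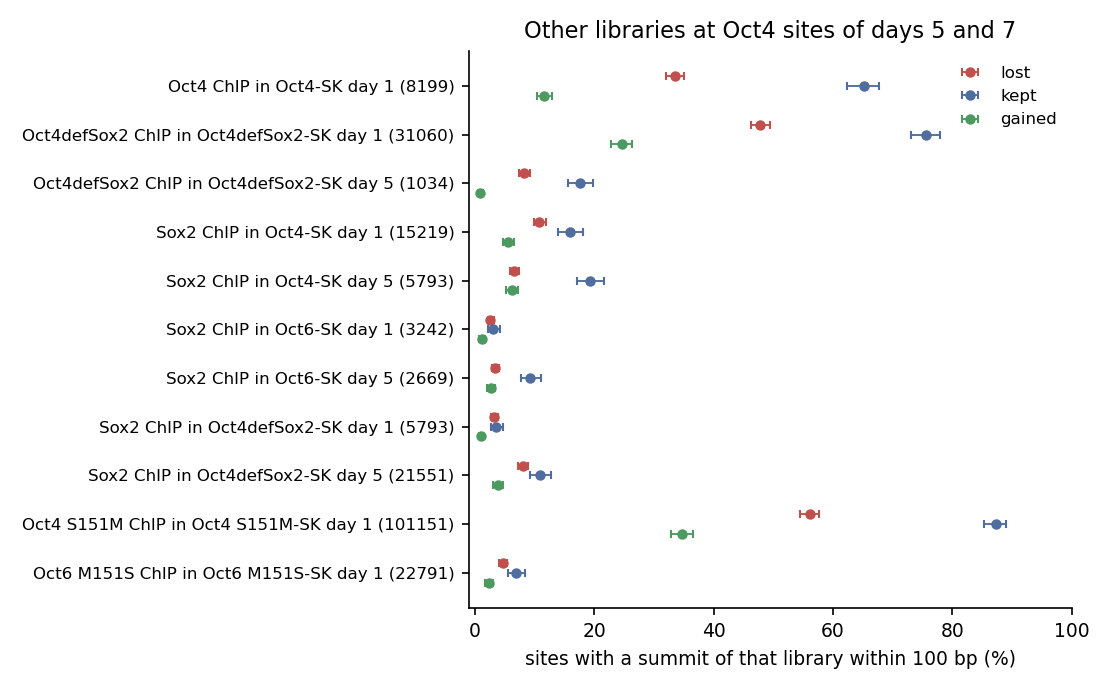
Percentage of lost, kept and gained Oct4 sites (x axis) with a summit of each other ChIP library within 100 bp (y axis, with the number of summits in that library), with 95% Wilson intervals. Kept sites stand highest in each row, for example 65.1% with Oct4 at day 1 against 33.5% of lost and 11.6% of gained sites.

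The 5 best-ranked kept sites had scores over 100 on both days, and 4 of them held MORE. The highest, in an intron of Lemd1 at chr1:132222372, scored 285 at day 5 and 123 at day 7, the site whose perfect MORE is printed above. The site in an intron of Col15a1, a collagen gene, at chr4:47226124 scored 191 and 125. The site in an intron of Kremen1, which encodes a receptor for the Wnt inhibitor Dickkopf, at chr11:5237943 scored 242 and 108. The site 333 bp from a start of Vamp1, at chr6:125215218, scored 146 and 169. The site 75 bp from a start of Rnf169, at chr7:99980523, scored 259 and 103 and held none of the POU motifs. All 5 also had summits of Oct4defSox2 at day 5, with scores from 18.9 to 289.9, and none had a Sox2 summit in Oct4-SK cells. Among kept SoxOct sites, the one near Klf13 at chr7:63957254 scored 116 and 80.5 and was also occupied by Sox2 at day 1 (15.2) and day 5 (55.2). The Galnt17 site at chr5:131177377, with the perfect SoxOct printed above, scored 83.6 and 93.3. The strongest summit of all at day 7, in an intron of Abca4 at chr3:122145559, scored 15.1 at day 1, 57.9 at day 5 and 266 at day 7. Its sequence printed above holds similar copies of the match on both sides, though only 16.9% of the window is marked as repeat.

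Of the 5 best-ranked lost sites, 4 had a day 1 score of 43.7 or more. The site in an intron of Pde4d, a cAMP phosphodiesterase gene, at chr13:109593021 scored 296 at day 1 and 189 at day 5, and 8 of the 13 libraries had a summit there, among them Sox2 at both days and, like the Pou5f1 site described below, all 3 antibodies. The site in an intron of Sort1 at chr3:108304887, which holds MORE in a window 92.0% of which is marked as repeat, scored 220 at day 1 and 100.1 at day 5. The site nearest to Gm10306 at chr4:94482919 scored 43.7 and 85.0, and the site nearest to Cited2, which lies over 1 Mb away, at chr10:16284196 scored 74.7 and 90.4. The other one lay in an exon of Sox9, a gene of cartilage and other progenitors, at chr11:112782901, with 7.36 at day 1 and 143 at day 5. The lost SoxOct sites of best rank were weaker, at 61.3 (Tenm1), 44.4 (nearest to Frk) and 40.9 (nearest to Gm43517) on day 5. On day 1 the first had scored 13.9 and the last 58.7, whereas the site nearest to Frk had no summit, and none of the 3 had a Sox2 summit in Oct4-SK cells.

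Gained sites were weaker than the strongest kept sites, with a median day 7 score of 8.40 and a highest score of 57.6. That highest site lay in an exon of Lars2, a mitochondrial leucyl-tRNA synthetase gene, outside its coding part, at chr9:123462011, and Sox2 at day 5 had scored 43.4 there in Oct4-SK cells and 91.1 in Oct4defSox2-SK cells. The site in an intron of Ago1, an Argonaute gene, at chr4:126465972 scored 54.4 at day 7 and 15.0 at day 1, with Sox2 at 25.4 on day 5. It holds the SoxOct printed above. The site nearest to Zmat4 at chr8:23562185 scored 48.0 and the site in an intron of Aida at chr1:183299348 scored 45.8, the latter with no summit in any other library. The site nearest to Hhex, a homeobox gene of endoderm and blood vessels, at chr19:37469406 scored 47.6 at day 7 and 6.91 at day 1 and holds the MORE printed above. Gained SoxOct sites followed at Cntln (44.2) and nearest to Gm6871 (42.3), and gained MORE+1 sites in an intron of Cltc (39.3) and nearest to Rad18 (27.8).

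Known genes of the pluripotency network had kept and gained sites nearby. Of 34 listed genes, 10 (29.4%) had a kept site within 50 kb of a start, against 5.70% of all 21911 coding genes. A gained site was near 9 of them (26.5%, against 9.97%) and a lost site near 4 (11.8%, against 15.6%). These are counts without a test, and neighbours can share a site. At Pou5f1, which encodes Oct4, the kept site at chr17:35504045, 1973 bp from the start, scored 26.2 at day 5 (rank 449 of 4846) and 155 at day 7 (rank 4 of 3614), and 2 further sites were gained. The OG2 reporter carries Pou5f1 regulatory sequence, so reads of the reporter and of the gene cannot be told apart, and this site also had summits with the Sox2 and Oct6 antibodies in other libraries, as did 53 kept, 89 lost and 27 gained sites in all. The Oct6 M151S list, the one with the Oct6 antibody, had a median score of 3.74, below the lowest score of 4.00 in the other lists, so these counts depend on a looser threshold. At Rif1, a telomere and replication timing factor, the kept site scored 58.8 at day 5 (rank 97) and 107 at day 7 (rank 13). At Jarid2, a partner of the Polycomb complex PRC2, it scored 20.8 (rank 694) and 42.9 (rank 131). The site at the start of Tet2, a 5-methylcytosine oxidase, scored 74.2 (rank 58) and 35.1 (rank 195). The site that Dppa3 and Gdf3 share scored 31.0 (rank 337) and 23.2 (rank 440). The kept site at chr3:34654048 near Sox2, named after its values were seen, ranked 2284 of 4846 at day 5 and 2062 of 3614 at day 7 (scores 9.80 and 8.66) and held SoxOct.

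In the remaining lists the shares of genes with a site are read beside those of all coding genes, 15.6% with a lost, 5.70% with a kept and 9.97% with a gained site. Of 23 mesenchymal genes, 9 (39.1%) had a lost site nearby, 4 (17.4%) a gained site and 1 (4.35%) a kept site. The day 5 scores of the lost sites were 11.9 for the sites near Cdh2 (N-cadherin) and Col3a1 (a fibrillar collagen), 11.1 near Snai1, and 9.58 near Zeb2 and Twist1, all of these encoding transcription factors of the mesenchymal state except the first pair. The kept site near S100a4, a calcium-binding protein of fibroblasts, scored 14.2 and 11.7, and the strongest gained site near Fn1 (fibronectin) 10.8. The other lists were small, and 1 gene more or less moves their shares. Of 10 AP-1 genes, 3 (30%) had a lost site, 1 (10%) a gained site and 0 a kept site. The strongest was a lost site 129 bp from the start of Jund with a day 5 score of 28.9. Among 18 epithelial genes 2 (11.1%) had lost, 1 (5.56%) kept and 3 (16.7%) gained sites. The kept site near Rab25, a vesicle GTPase of epithelia, scored 11.7 and 30.0, and Cldn3 and Cldn4, claudins of tight junctions, shared a gained site of 19.6. Of 19 genes of TGF-beta and BMP signalling 2 (10.5%) had lost, 1 (5.26%) kept and 4 (21.1%) gained sites, the strongest being gained near Id3 (24.1) and Bmpr1a (19.6). Of 18 neural genes 2 (11.1%) had lost, 1 (5.56%) kept and 3 (16.7%) gained sites. The site near Sox21 was kept with 53.9 and 48.9 and held SoxOct, and the sites near Nes (41.1) and Zic1 (26.3, with MORE) were gained.

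Most sites of each class lay away from promoters. An annotated start of any gene, coding or not, lay within 1 kb of 371 lost sites (10.2%), 103 kept sites (8.44%) and 147 gained sites (6.15%). Gained fell below lost by 4.09 points (interval of the difference -5.45 to -2.68), but by 0.31 points (-3.30 to 2.67) among the strongest 1000. Kept and lost sites differed by -1.80 points (-3.56 to 0.14), which turned to 3.12 (-0.60 to 7.26) among the strongest 1000. Without repeat windows, an alternative chosen after seeing the data, this difference was -2.45 (-4.36 to -0.35), past counting error. Introns held 48.3% of kept, 45.9% of lost and 44.7% of gained summits, and intergenic DNA 42.4%, 43.2% and 45.6%. Repeat windows made up 9.58% of kept, 12.8% of lost and 12.2% of gained sites. The median GC content of the windows was 42.8% at kept sites and 41.8% at both lost and gained sites.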

How the data were processed

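ChIP-seq summit lists of Oct4 at day 5 and day 7 in Oct4-SK cells were compared, with the lists of 11 other ChIP libraries as annotation. Per the labels and the study's methods, the authors aligned paired-end reads to mm10 with Bowtie2 2.2.5, filtered them with SAMtools and called peaks per library with MACS2, and the score they deposited for a summit is the −log10 p-value, unscaled between libraries. Whether an input was used in calling is not given in the sources used here. The 3 input samples and 2 peak tables of other libraries were not used here. All 16 samples fall in 16 groups of 1 library, taken from the titles, and no replicate error exists.

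Summits on chromosomes 1 to 19, X and Y were kept (8 left out at day 5, 24 at day 7). Sites were shared within 100 bp. Coordinates were checked against GRCm38, where 0 summits passed a chromosome end, and annotated with GENCODE M21 basic. Sequence came from RefSeq GRCm38.p6. Neighbouring windows of the same length lay 2 kb to either side. A promoter lay within 1 kb of a start of any annotated gene, coding or not. A gene was counted when a site lay within 50 kb of one of its coding starts. Shares have Wilson and differences Newcombe 95% intervals, which treat sites as independent. Scripts ran in Python 3.11.15 with numpy 2.4.6 and scipy 1.17.1, and matplotlib 3.10.9 drew the figures. They were tested on simulated data. The sites, motifs and gene lists were chosen with earlier results of these data known. Named were the 5 best-ranked sites of each class, the 3 best with SoxOct and with MORE, and up to 6 genes per list with the strongest sites. Alternatives were sharing distances of 50 and 250 bp, equal numbers, scores of 10 or more, 1 summit per peak, sites without all 3 antibodies, other mismatch limits and windows, and a promoter distance of 5 kb. Leaving out repeat windows was added after seeing the data.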

Additional observations from a re-analysis of the deposited data

How the results depend on the processing

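No paired analysis was possible because each day has 1 library, so that no replicates exist to pair. Of 169 alternative values of 18 results, 137 kept their direction and their side of counting error or, for the kept shares, stayed within the 95% interval of the value given, though some of these differed in size by over 1.5 times. The kept share of day 5 sites was 20.3% with sharing within 50 bp, 26.8% within 250 bp, 32.0% at scores of 10 or more, 31.7% with the strongest 3614 and 35.7% with the strongest 1000. For day 7 sites it was 27.2%, 35.9%, 40.9%, 31.7% and 35.7%. With scores of 10 or more, gained minus lost was 10.8 points for SoxOct and -7.21 for MORE, in the direction given, and the changed differences in points were -1.21 for SoxOct (gained minus kept), -2.11 for MORE (kept minus lost), -0.44 for Klf, 1.35 for Sox2 at day 5 and -0.49 for promoters (each gained minus lost), and 2.07 for promoters (kept minus lost). In the same order they were -0.86, -0.056, 0.62, 7.00, -0.31 and 3.12 with the strongest 1000, where Oct4defSox2 (kept minus lost) was -0.013. MORE (kept minus lost) was -0.47 with the strongest 3614 and 2.72 (0.14 to 5.43) with 1 more mismatch. Klf (gained minus lost) was -0.40 in windows of 50 bp and -0.97 without repeat windows, an alternative chosen after seeing the data. Sox2 (gained minus lost) was 0.37 with sharing within 50 bp and 0.0063 without sites of all 3 antibodies. With promoters out to 5 kb, kept minus lost was 0.48 and gained minus lost -1.16, and kept minus lost was -2.45 (-4.36 to -0.35) without repeat windows. The cause of these changes was not tested. Of the 26 named sites, 2 were left out with the repeat windows and 2 with the sites of all 3 antibodies. No lost or gained site among them became shared within 250 bp, and most other settings could not have made one shared. With 1 library a day and no known depth, a site missing from a list may be bound below its threshold, and neither the spread between cultures nor the effect of read length can be given.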
